A study of Mus musculus with 58 samples.

Results

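The 8 genes described here, P2ry12, P2ry13, Gpr34, Tmem119, Siglech, Selplg, Fcrls and Olfml3, are transcripts by which resting (homeostatic) brain microglia are recognised. They were chosen by name, each symbol was matched to its Ensembl identifier, and all 8 were found among the 47643 genes listed for each of 34 microglia libraries. Of these genes 7 encode proteins of the cell surface, and Olfml3 encodes a secreted glycoprotein. The libraries form 8 groups in 4 experiments, each with its own controls. Wild-type primary microglia were plated and then were kept for 24 h with vehicle or with fibrils of full-length tau at 2 µg/ml (4 libraries each). Adult microglia came from male PS19 mice, which carry a P301S tau transgene, and from non-transgenic (NTG) males (4 libraries each), at a labelled age of 10.98 months except for NTG 1 and NTG 2 (11.18 months). IkbkbCA cultures (Cx3cr1CreERT2/+; IkbkbCA F/F) carry an allele designed to give a constitutively active IKKβ kinase after Cre recombination, and IkbkbWT cultures (Cx3cr1+/+; IkbkbCA F/F) carry the same floxed allele without Cre (5 libraries each). Ikbkb-/- cultures (Cx3cr1CreERT2/+; Ikbkb F/F) lose the kinase gene, and Ikbkb+/+ cultures (Cx3cr1+/+; Ikbkb F/F) keep it (4 libraries each). All cultures of these genotypes, controls included, were treated with 4-hydroxytamoxifen. The Cre sits in the Cx3cr1 locus, so it acts in cells that use Cx3cr1, and both Cre genotypes have 1 intact Cx3cr1 allele while their controls have none disrupted. Within each of these comparisons, effects of the kinase and of the Cre allele cannot be told apart. Cultures came from the hippocampi and cortices of newborn pups, and adult cells were enriched with CD11b beads after myelin removal. The labels give the cultures as separate samples without saying whether they came from separate litters, so that p-values measure the spread between these libraries.

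Homeostatic microglia survey the brain with motile processes and keep a set of surface receptors that peripheral macrophages mostly lack. TGF-β signalling through SMAD proteins, together with the transcription factors PU.1, SALL1 and the MEF2 family, maintains this set in the adult brain, and the set is known to decline when microglia are placed in culture or become activated. NF-κB, which IKKβ switches on by marking its inhibitor for degradation, is a major activator of inflammatory genes in these cells. P2ry12 and P2ry13 encode receptors for ADP and related nucleotides, and P2RY12 guides microglial processes to sites of injury. Gpr34 encodes a receptor for lysophosphatidylserine. Tmem119 encodes a transmembrane protein widely used as a microglial marker. Siglech encodes a sialic acid-binding lectin that signals through the adaptor DAP12. Selplg encodes PSGL-1, a ligand of selectins, and Fcrls encodes an Fc receptor-like scavenger molecule of mouse microglia.

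On GRCm38 (GENCODE M21) P2ry12 (ENSMUSG00000036353) spans chr3:59216272-59262871 and P2ry13 (ENSMUSG00000036362) spans chr3:59207892-59210882, both on the minus strand, 5389 bases apart and inside the oppositely transcribed gene Med12l. Tmem119 (ENSMUSG00000054675; chr5:113793729-113800516) and Selplg (ENSMUSG00000048163; chr5:113818536-113832644) are also neighbours, 18019 bases apart on the minus strand. Gpr34 (ENSMUSG00000040229; chrX:13632089-13640858) lies on the plus strand within the oppositely transcribed Cask. Siglech (ENSMUSG00000051504) is on the plus strand at chr7:55768178-55778925. Olfml3 (ENSMUSG00000027848) lies at chr3:103722222-103738001 and Fcrls (ENSMUSG00000015852) at chr3:87250758-87263738, both on the minus strand.

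The bases before the RefSeq transcription start (GRCm38.p6) are shown for the 3 genes with a lower call in an Ikbkb comparison, of the 5 genes that had an entry (P2ry12, P2ry13, Siglech, Olfml3 and Fcrls; Tmem119, Gpr34 and Selplg had none). The lower calls of P2ry12 and Siglech depended on which Ikbkb+/+ libraries were used, as described with the comparison of Ikbkb-/- with Ikbkb+/+. Each run is written 5′ to 3′ on the strand of the gene and ends at the base before the start. The RefSeq start of Fcrls lies within the GENCODE span of the gene (chr3:87250758-87263738), so nearly all of its run is inside that span. Capitals mark the PU.1 core GAGGAA, the SMAD element CAGAC or the κB pattern (GGGA and CC with 4 free bases between them), each read on both strands.
P2ry12, chr3:59262986-59263205, minus strand: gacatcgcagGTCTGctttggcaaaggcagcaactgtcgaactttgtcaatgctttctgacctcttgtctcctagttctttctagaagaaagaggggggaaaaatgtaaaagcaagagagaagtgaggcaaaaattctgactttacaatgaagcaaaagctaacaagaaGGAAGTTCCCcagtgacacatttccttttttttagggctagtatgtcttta
Siglech, chr7:55767964-55768183, plus strand: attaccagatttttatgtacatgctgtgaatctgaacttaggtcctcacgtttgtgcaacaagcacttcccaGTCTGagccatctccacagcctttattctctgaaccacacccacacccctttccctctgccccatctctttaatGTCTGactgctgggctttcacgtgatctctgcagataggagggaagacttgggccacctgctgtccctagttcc
Fcrls, chr3:87263525-87263744, minus strand: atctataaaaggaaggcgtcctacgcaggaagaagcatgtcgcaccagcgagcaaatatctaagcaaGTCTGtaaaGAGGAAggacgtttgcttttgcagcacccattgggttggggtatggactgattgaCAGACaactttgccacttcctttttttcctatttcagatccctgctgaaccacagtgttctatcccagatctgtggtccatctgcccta
The κB pattern occurred 51 to 42 bases before the start of P2ry12 and in no other of the 5 windows of 250 bases, and 17.6% of 32841 RefSeq promoter windows of that length hold it. GAGGAA was found before Fcrls (144 to 139 bases) and P2ry13 (48 to 43 bases), against 23.3% of all windows. CAGAC was found before P2ry12, Siglech and Fcrls, against 42.2% of all windows. TATAAA occurred before Fcrls alone (12.4% of all windows), and neither the interferon-stimulated response element (GAAA repeated after 2 free bases; 2.98%) nor the MEF2 pattern (CTA and TAG with 4 free bases between them; 3.2%) occurred in any of the 5. A match describes letters only and is not evidence of binding.

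Total counts were 1672052 to 8349128 per library, and of the reads on genes, ambiguous between genes or outside genes, 12.4% to 38.3% lay outside, the most in PS19 2. Ikbkb was counted at 18.5 to 24.6 CPM in Ikbkb-/- libraries and at 44.7 to 55.2 CPM in Ikbkb+/+ libraries, although the sources used here do not say whether the counted 3′ end lies within the deleted segment. In IkbkbCA Ikbkb was at 44.2 to 59.6 CPM, against 39.9 to 57.8 CPM in IkbkbWT (log2 fold change 0.17 ± 0.115, edgeR FDR = 0.405), so the counts of this gene do not show the activated allele, and whether its transcript has the counted 3′ end is not given in the sources used here. By quantitative PCR the paper reports raised Ikbkb mRNA in IkbkbCA primary microglia and deletion of Ikbkb in Ikbkb-/- primary microglia. With tau fibrils Ikbkb rose (0.62 ± 0.161, edgeR FDR = 0.00436). All 15 markers of microglia and macrophages were detected in every group. Some libraries stood apart in the genes described here. IkbkbCA 3 was the lowest of its group for P2ry12, P2ry13, Gpr34, Tmem119, Olfml3, Selplg and Fcrls. Its summed oligodendrocyte markers were 2110 CPM, against 711 to 1180 in the other IkbkbCA libraries, and its monocyte and granulocyte markers were 90.6 CPM, against 20.6 to 34.8. IkbkbWT 3 had 5460 CPM of oligodendrocyte markers, against 472 to 1110 in the rest of its group. Ikbkb+/+ 1, 2 and 3 differed from Ikbkb+/+ 4 in 7 of the 8 genes, as described with that comparison. In bulk libraries such as these, fewer cells of a type and less RNA per cell cannot be told apart.

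Adult microglia held far more of these transcripts than cultured microglia, with the exception of Fcrls. Levels are given as CPM, the counts of a gene relative to the library total after TMM scaling over all 34 libraries, and QuantSeq counts 3′ ends, so that a level does not grow with the length of the transcript. Age, isolation, plating and experiment differ together between adult and cultured cells and cannot be told apart.

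**Figure D1:**
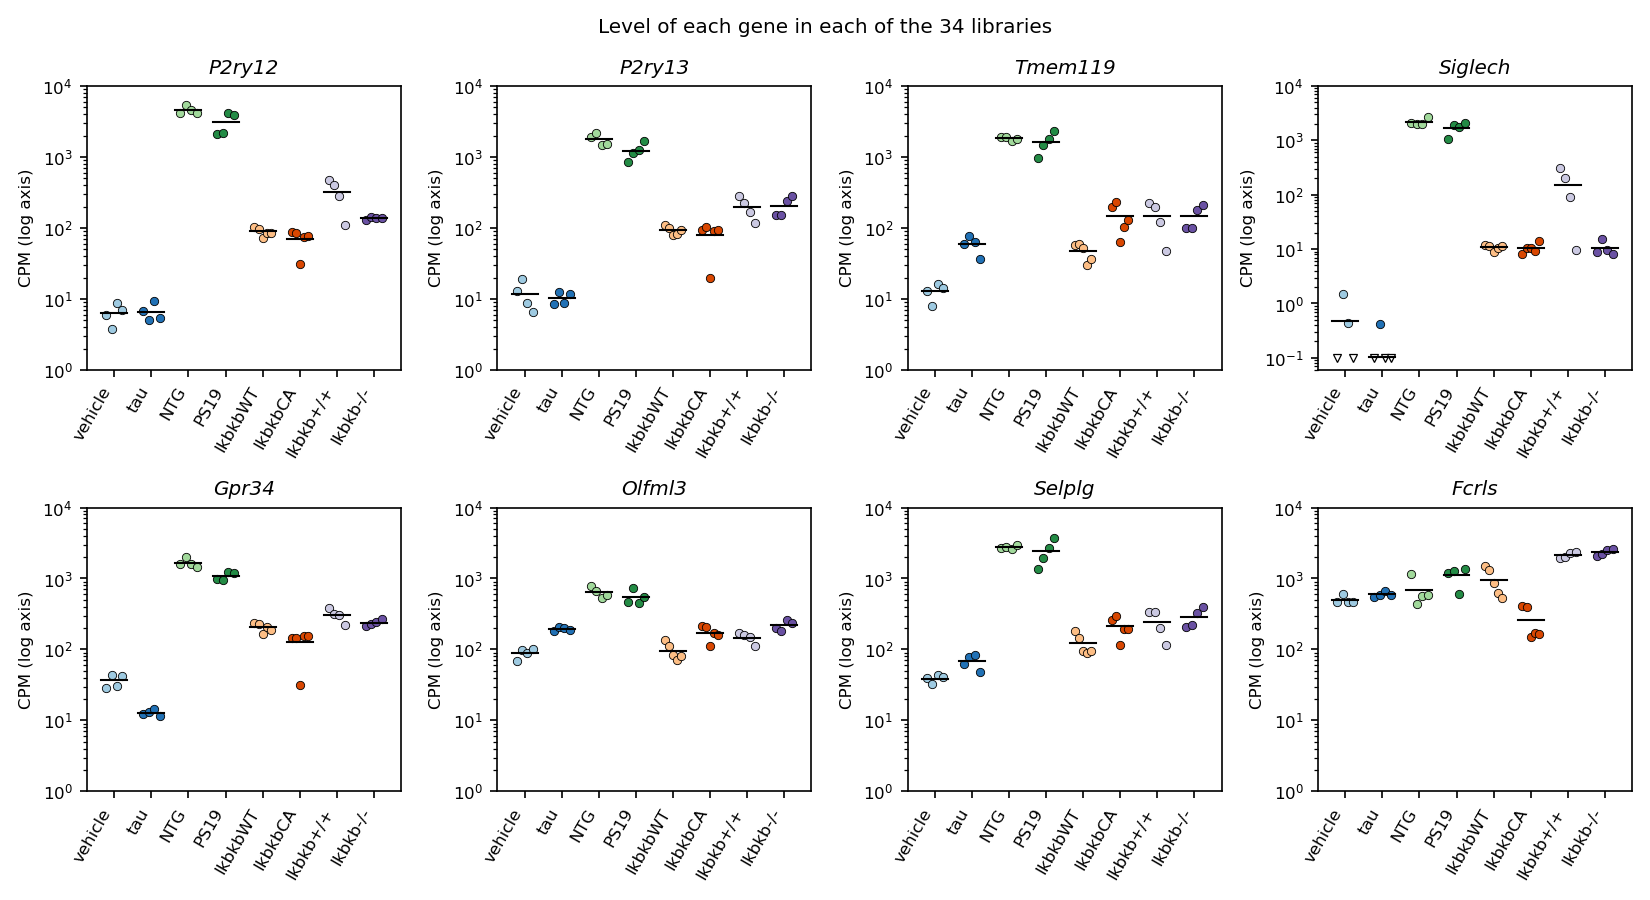
CPM of each gene (vertical, log axis) in the 34 libraries by group (horizontal). Each point is a library, a bar is the group mean and open triangles at the foot of the Siglech panel are libraries with a count of 0. Adult NTG and PS19 libraries lie above all cultures for every gene except Fcrls, and Siglech is spread from 9.82 to 305 CPM among the Ikbkb+/+ libraries.

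P2ry12 averaged 4571 ± 576 CPM in NTG (SD, n = 4) and 3062 ± 1073 in PS19 (n = 4). In cultures its mean was 320 ± 162 CPM in Ikbkb+/+ (n = 4), 137 ± 6.29 in Ikbkb-/- (n = 4), 89.2 ± 12.3 in IkbkbWT (n = 5) and 70.5 ± 22.7 in IkbkbCA (n = 5), and only 6.61 ± 1.89 and 6.33 ± 2.07 in the plated tau and vehicle cultures (n = 4 each). The NTG mean was thus 14.3 times the highest culture mean and 723 times the lowest. Ikbkb+/+ and Ikbkb-/-, IkbkbWT and IkbkbCA, and tau and vehicle overlapped, and the other neighbours in this order did not.

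P2ry13, the other nucleotide receptor, followed the same order of experiments. Its means were 1771 ± 346 CPM in NTG and 1232 ± 337 in PS19, which overlapped, then 207 ± 63.2 in Ikbkb-/-, 199 ± 71.5 in Ikbkb+/+, 93.0 ± 12.3 in IkbkbWT, 80.3 ± 34.1 in IkbkbCA, 11.7 ± 5.45 in vehicle and 10.4 ± 2.13 in tau. Within every experiment the libraries of the groups overlapped. Gpr34, the lysophosphatidylserine receptor, averaged 1674 ± 243 CPM in NTG and 1093 ± 149 in PS19, and these 2 groups did not overlap. Gpr34 was at 308 ± 67.7 CPM in Ikbkb+/+, 239 ± 25.4 in Ikbkb-/-, 205 ± 28.9 in IkbkbWT and 127 ± 53.5 in IkbkbCA, and at 36.5 ± 8.05 in vehicle and 12.8 ± 1.27 in tau.

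Tmem119 was at 1824 ± 127 CPM in NTG and 1625 ± 565 in PS19. In culture the means of Ikbkb-/- (149 ± 58.1), Ikbkb+/+ (147 ± 79.6) and IkbkbCA (146 ± 68.5) differed by less than their spread, and tau (59.6 ± 17.4), IkbkbWT (47.4 ± 13.2) and vehicle (12.7 ± 3.39) came below. Selplg, the gene next to Tmem119, was at 2749 ± 141 CPM in NTG, 2425 ± 1007 in PS19, 287 ± 90.2 in Ikbkb-/-, 247 ± 109 in Ikbkb+/+, 212 ± 68.6 in IkbkbCA, 121 ± 40.8 in IkbkbWT, 68.5 ± 16.6 in tau and 38.9 ± 4.49 in vehicle. For both genes the adult groups overlapped each other and no culture. Olfml3 had the narrowest difference between adult and cultured cells among the 7 genes that were higher in adults: 637 ± 107 CPM in NTG and 550 ± 127 in PS19 stood against 220 ± 34.6 in Ikbkb-/- and 88.8 ± 13.9 in vehicle, 2.9 and 7.17 times less than NTG.

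Siglech showed the widest range. It was counted at 2176 ± 324 CPM in NTG and 1707 ± 459 in PS19, at 10.8 ± 1.22 in IkbkbWT, 10.6 ± 2.28 in IkbkbCA and 10.4 ± 3.44 in Ikbkb-/-, and at 152 ± 129 in Ikbkb+/+, where the SD was nearly as large as the mean and 3 of the 4 libraries stood apart from the other cultures. Among the plated cultures it had 0 counts in tau 1, tau 3, tau 4, vehicle 1 and vehicle 4, 1 count in tau 2 and vehicle 3, and 8 counts in vehicle 2. A count of 0 allows up to 3 counts, which is 1.11 to 1.67 CPM in those libraries, a bound that covers counting error only.

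Fcrls went against the other genes. Its highest means were in the cultures Ikbkb-/- (2363 ± 270 CPM) and Ikbkb+/+ (2135 ± 208), above PS19 (1117 ± 351), IkbkbWT (960 ± 419) and NTG (683 ± 315), and tau (597 ± 46.3) and vehicle (500.0 ± 64.0) overlapped with NTG. The lowest mean was in IkbkbCA (260 ± 134), and none of its libraries reached the vehicle group.

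In tau-stimulated microglia Tmem119, Olfml3 and Selplg rose and Gpr34 fell, while P2ry12, P2ry13 and Fcrls did not pass the test. Of the 7 genes tested, 3 were called higher and 1 lower by edgeR's quasi-likelihood test at a Benjamini-Hochberg FDR under 0.05, while 14.5% of the 10408 genes tested were called higher and 15.4% lower. The groups did not overlap for 4 of the 8 genes, against 28.4% of all genes tested. Siglech was too low to be tested.

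Tmem119 was at 60.2, 78.1, 64.0 and 36.3 CPM in tau 1 to 4 and at 12.8, 8.04, 16.03 and 14.03 CPM in vehicle 1 to 4. Every tau library was above every vehicle library, and the log2 fold change was 2.27 ± 0.242 (SE; edgeR FDR = 2.92e-08). Olfml3, whose product is secreted into the extracellular matrix, was at 183, 209, 201 and 186 CPM with tau fibrils and at 69.5, 97.7, 88.0 and 100.2 CPM with vehicle. The groups did not overlap here either, with a log2 fold change of 1.11 ± 0.136 (edgeR FDR = 3.42e-07). Selplg was at 63.0, 78.5, 84.7 and 47.7 CPM with tau fibrils and at 39.1, 32.7, 43.3 and 40.6 CPM with vehicle. All tau libraries were higher, the nearest being tau 4, and the log2 fold change was 0.82 ± 0.18 (edgeR FDR = 0.000951). In a fit of all 34 libraries the Selplg call was lost (log2 fold change 0.83, edgeR FDR = 0.0781).

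Gpr34 moved the opposite way. It was at 12.3, 13.01, 14.4 and 11.4 CPM with tau fibrils and at 28.9, 44.3, 30.3 and 42.6 CPM with vehicle, so that each tau library was below each vehicle library (log2 fold change -1.54 ± 0.218, edgeR FDR = 3.7e-06). For the other G protein-coupled receptors the groups overlapped. P2ry12 was at 6.69, 5.04, 9.24 and 5.46 CPM with tau fibrils and at 5.88, 3.74, 8.67 and 7.02 CPM with vehicle, a log2 fold change of 0.11 ± 0.375 (edgeR FDR = 0.862) whose sign turned under total count scaling (-0.04). P2ry13 had a log2 fold change of -0.25 ± 0.314 (edgeR FDR = 0.599). Fcrls had a log2 fold change of 0.24 ± 0.125 (edgeR FDR = 0.165), with tau libraries at 556 to 663 CPM and vehicle libraries at 462 to 596 CPM.

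Markers of other cells moved with the same comparison. Among the tested markers, 6 of 9 neuronal and 7 of 10 astrocyte genes were called lower with tau fibrils, and 12 of 15 genes of the microglia and macrophage list were called higher. The summed microglia and macrophage markers were 22400 to 25400 CPM in tau libraries against 9960 to 12600 CPM in vehicle libraries. The summed astrocyte markers were 502 to 576 CPM and 904 to 989 CPM, and the neuronal markers 189 to 254 CPM and 361 to 449 CPM. Their part in the results for the genes described here was not tested. All tested genes had a median log2 fold change of -0.01, and total count scaling shifted log2 fold changes by -0.15 at the median.

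**Figure D2:**
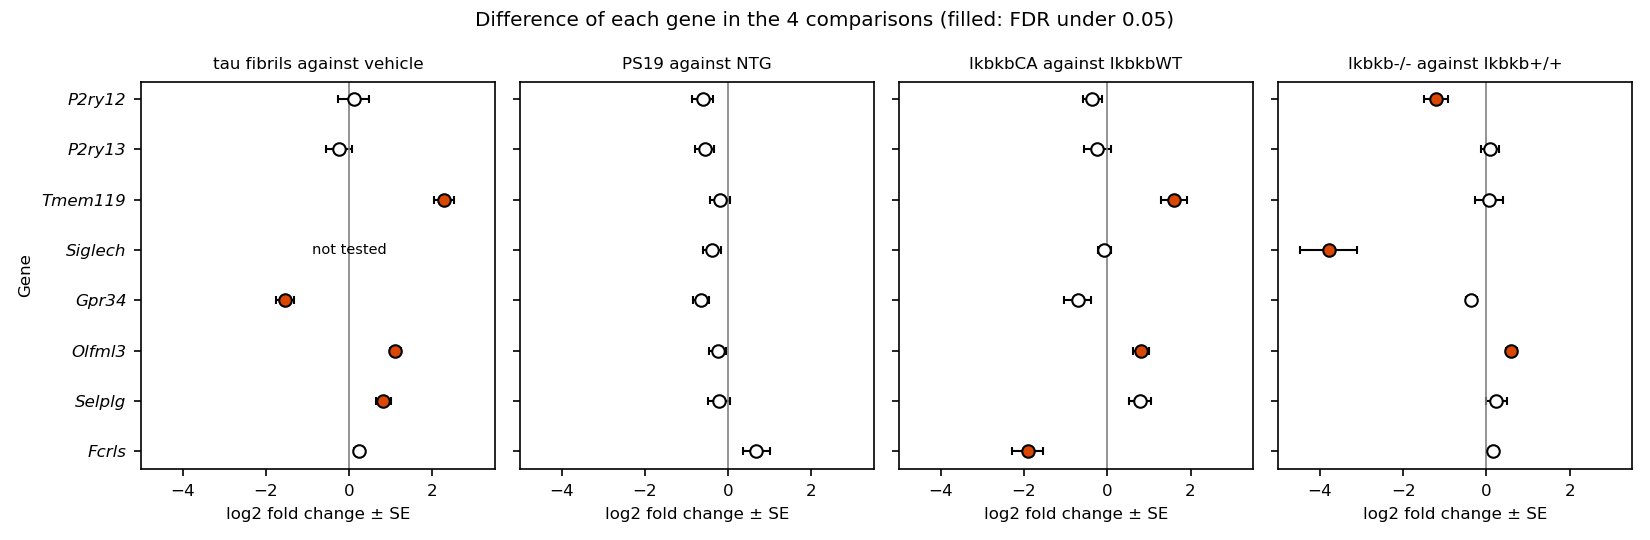
Log2 fold change of each gene (horizontal, bars are SE) in the 4 comparisons, with filled points at FDR under 0.05. Tmem119 is filled on the higher side in tau and IkbkbCA, and Olfml3 there and in Ikbkb-/-. Selplg (higher) and Gpr34 (lower) are filled only in tau, Fcrls (lower) only in IkbkbCA, and P2ry12 and Siglech (lower) only in Ikbkb-/-. No point is filled in PS19.

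In adult microglia of PS19 mice none of the 8 genes was called. Only 8 of 11323 genes were called in this comparison, all higher (0.0707% higher and 0% lower), and at an unadjusted p under 0.05 there were 3 of the 8 genes, against 8.63% of all genes tested. DESeq2 and limma-voom called 0 of the 8 as well. The log2 fold change was negative for 7 of 8 genes, with a median of -0.32 against 0.00 for all genes tested. The groups did not overlap for 2 of the 8 genes, against 5.9% of all genes tested. The number called over all genes depended on the method: 97 by DESeq2, 4 by limma-voom and 375 in a fit of all 34 libraries. At the same FDR threshold the paper reports more raised genes in PS19 microglia than the edgeR test called here.

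Gpr34 was at 981, 948, 1229 and 1213 CPM in PS19 1 to 4 and at 1612, 2022, 1603 and 1457 CPM in NTG 1 to 4. All PS19 libraries were lower than all NTG libraries, with a log2 fold change of -0.65 ± 0.188 (edgeR unadjusted p = 0.00436, FDR = 0.336). P2ry12 was at 2079, 2195, 4112 and 3861 CPM in PS19 and at 4145, 5389, 4562 and 4190 CPM in NTG. PS19 1 and 2 were far below the NTG libraries, whereas PS19 3 and 4 nearly reached them, and the log2 fold change was -0.61 ± 0.249 (edgeR FDR = 0.522). P2ry13 was at 854, 1148, 1258 and 1668 CPM in PS19 and at 1925, 2187, 1468 and 1505 CPM in NTG (log2 fold change -0.56 ± 0.23, edgeR FDR = 0.525). Its groups overlapped through PS19 4.

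Siglech was at 1051, 1877, 1785 and 2114 CPM in PS19 against 2075, 1989, 1981 and 2657 CPM in NTG (log2 fold change -0.39 ± 0.226, edgeR FDR = 0.661). PS19 1 was the lowest library for Tmem119 (959 CPM), Selplg (1360 CPM) and Siglech, and PS19 4 was the highest for Tmem119 (2308 CPM) and Selplg (3709 CPM). The spread within PS19 thus exceeded the difference between groups for Tmem119 (log2 fold change -0.21 ± 0.24, edgeR FDR = 0.849), Selplg (-0.22 ± 0.264, FDR = 0.855) and Olfml3 (-0.25 ± 0.205, FDR = 0.77). Fcrls had the only positive value, 0.68 ± 0.32 (edgeR FDR = 0.593), with 1198, 1291, 603 and 1378 CPM in PS19 and 1147, 443, 559 and 584 CPM in NTG. PS19 3 and NTG 1 were on the side of the other group. Summed astrocyte markers were 904 to 2070 CPM in PS19 and 728 to 1100 CPM in NTG, and monocyte and granulocyte markers were 456 to 2760 CPM and 1700 to 2370 CPM, with the lowest sum in PS19 1. Their part was not tested.

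In the IkbkbCA cultures Tmem119 and Olfml3 rose and Fcrls fell. In IkbkbCA against IkbkbWT, 2 of the 8 genes were called higher and 1 lower, while 7.31% of the 11697 genes tested were called higher and 7.16% lower. The groups did not overlap for 3 of the 8 genes, against 12.3% of all genes tested. The median log2 fold change was -0.15 over the 8 genes and -0.05 over all genes tested.

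Tmem119 was at 198, 232, 64.1, 105 and 130.0 CPM in IkbkbCA 1 to 5 and at 58.4, 59.0, 52.6, 30.3 and 36.6 CPM in IkbkbWT 1 to 5. The groups did not overlap, although IkbkbCA 3 came close to IkbkbWT, and the log2 fold change was 1.60 ± 0.317 (edgeR FDR = 0.00514). Its neighbour Selplg was at 261, 293, 116, 193 and 196 CPM against 181, 146, 94.1, 90.5 and 94.1 CPM, and overlapped through IkbkbCA 3. Selplg fell short of the threshold (log2 fold change 0.79 ± 0.253, edgeR FDR = 0.0596) and passed it without IkbkbCA 3 (0.96, edgeR FDR = 0.0157) or without IkbkbWT 1 (0.99, edgeR FDR = 0.0272). Olfml3 was at 212, 206, 111, 169 and 161 CPM in IkbkbCA and at 135, 113, 83.1, 70.5 and 81.4 CPM in IkbkbWT. Its log2 fold change was 0.81 ± 0.198 (edgeR FDR = 0.0167), and the groups overlapped by IkbkbCA 3 only.

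Fcrls was the gene with the largest difference of the 8. It was at 410.4, 402, 151, 171 and 164 CPM in IkbkbCA and at 1487, 1301, 857, 623 and 533 CPM in IkbkbWT. Every IkbkbCA library was below every IkbkbWT library, in spite of a wide spread within both groups, and the log2 fold change was -1.91 ± 0.37 (edgeR FDR = 0.00464). Gpr34 was at 144, 147, 31.9, 157 and 155 CPM in IkbkbCA against 237.6, 227, 166, 207 and 187 CPM in IkbkbWT. The groups did not overlap, but the low value of IkbkbCA 3 widened the spread, and the log2 fold change of -0.71 ± 0.325 was not called (edgeR FDR = 0.182). Without IkbkbCA 3 it was smaller and called (-0.44 ± 0.106, edgeR FDR = 0.0184).

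In both groups replicates 4 and 5 had more neuronal markers (320 to 352 CPM in sum) than replicates 1 to 3 (35.4 to 109 CPM). With this split as a term, an alternative added after the data were seen, Selplg was called (0.81 ± 0.235, edgeR FDR = 0.0355) beside Tmem119 (1.62, FDR = 0.00175), Olfml3 (0.83, FDR = 0.0093) and Fcrls (-1.89, FDR = 0.000322). Among the libraries with fewer neuronal markers, which include IkbkbCA 3, the log2 fold change was 1.53 for Tmem119 (edgeR FDR = 0.0907), 0.67 for Olfml3 (FDR = 0.237), 0.66 for Selplg (FDR = 0.388) and -1.93 for Fcrls (FDR = 0.0341). Among those with more it was 1.80 for Tmem119, 1.12 for Olfml3, 1.08 for Selplg and -1.78 for Fcrls, all called by edgeR, with 2 libraries a group.

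The nucleotide receptors and Siglech did not pass the test. P2ry12 was at 86.6, 83.5, 31.0, 74.2 and 77.4 CPM in IkbkbCA and at 105, 97.2, 72.5, 86.2 and 85.4 CPM in IkbkbWT (log2 fold change -0.36 ± 0.226, edgeR FDR = 0.345). P2ry13 was at 94.5, 103, 19.9, 91.1 and 92.4 CPM in IkbkbCA and at 78.8 to 109 CPM in IkbkbWT (-0.24 ± 0.323, edgeR FDR = 0.717; 0.04 without IkbkbCA 3). Siglech stayed between 8.27 and 14.3 CPM in both groups (-0.07 ± 0.166, edgeR FDR = 0.851).

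In the comparison of Ikbkb-/- with Ikbkb+/+, the result for most of these genes depended on which control libraries were used. Ikbkb+/+ 1, 2, 3 and 4 held 305, 200.3, 91.6 and 9.82 CPM of Siglech, whereas the Ikbkb-/- libraries held 8.76, 15.5, 9.47 and 8.02 CPM. P2ry12 was at 481, 408, 280.2 and 112 CPM in Ikbkb+/+ and at 129, 145, 137 and 137 CPM in Ikbkb-/-. For both genes the first 3 controls were above all Ikbkb-/- libraries and Ikbkb+/+ 4 was among or below them. The excess of Ikbkb+/+ 1 over Ikbkb+/+ 4 came to 8 to 13.6% of the NTG mean for 7 genes (8.07% for P2ry12, 9.34% for P2ry13, 9.86% for Gpr34, 9.65% for Tmem119, 13.6% for Siglech, 8% for Selplg and 9.23% for Olfml3). For Ikbkb+/+ 2 it was 5.77 to 8.75% and for Ikbkb+/+ 3 it was 2.77 to 5.88% of the NTG mean. Fcrls, whose NTG level is below that of these cultures, was instead lower in Ikbkb+/+ 1 (1925 CPM), 2 (1995 CPM) and 3 (2259 CPM) than in Ikbkb+/+ 4 (2360 CPM).

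Other transcripts moved with these libraries. A set of 17 further genes, chosen after the values were seen for a mean of at least 100 CPM in NTG and under 5 CPM in both vehicle and IkbkbWT, summed to 695, 296, 225 and 39.4 CPM in Ikbkb+/+ 1 to 4, which is 19%, 8.08%, 6.15% and 1.08% of their NTG mean. In the Ikbkb-/- libraries the same sum was 35.3 to 41.8 CPM. Among these genes are S100a9 and Ngp of granulocytes and the antigen presentation genes Cd74 and H2-Aa. The summed monocyte and granulocyte markers were 418, 100, 46.1 and 13.3 CPM in Ikbkb+/+ 1 to 4 and 10.6 to 17.1 CPM in Ikbkb-/-. Ikbkb itself was alike in the 4 controls (52.5, 44.7, 53 and 55.2 CPM). Whether Ikbkb+/+ 1, 2 and 3 hold RNA or reads of the adult libraries was not tested, and the Ikbkb+/+ means of P2ry12 and Siglech and the calls made from them include these libraries.

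**Figure D3:**
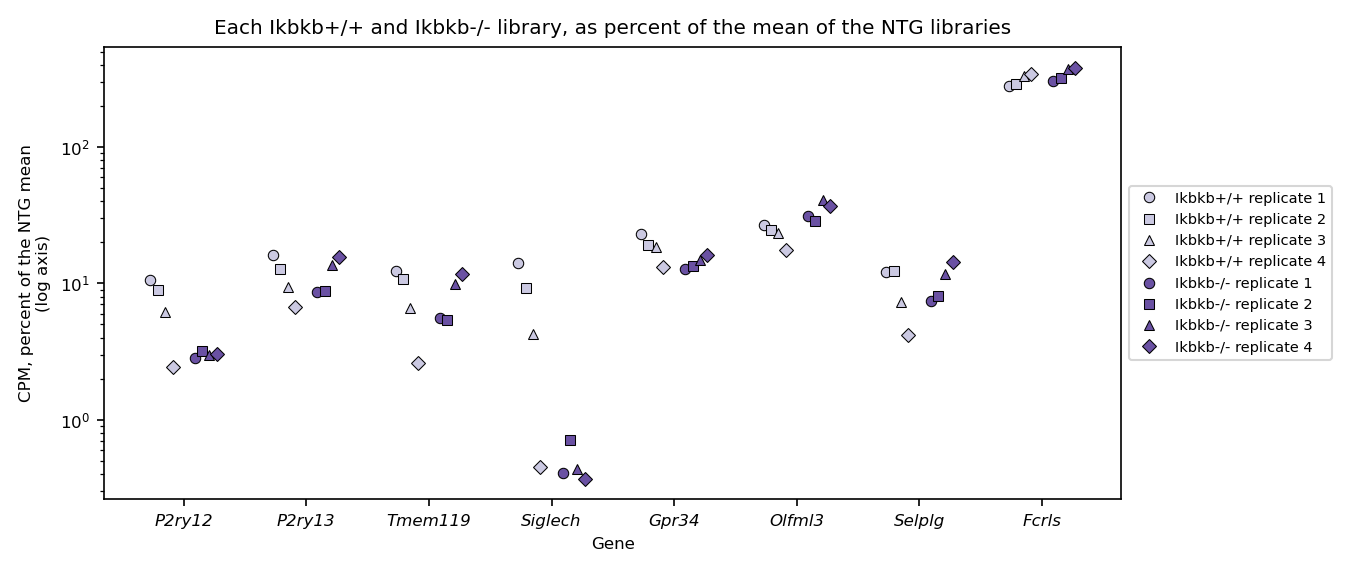
CPM of each gene (horizontal) in the 4 Ikbkb+/+ and 4 Ikbkb-/- libraries as percent of the mean of the NTG libraries (vertical, log axis), with a symbol for each replicate. Ikbkb+/+ 4 lies below the other controls for every gene except Fcrls and close to the Ikbkb-/- libraries for P2ry12 and Siglech.

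With all 4 controls, 2 of the 8 genes were called lower and 1 higher, while 6.96% of the 11242 genes tested were called lower and 7.64% higher, and the groups did not overlap for 1 of the 8 genes, against 17.9% of all genes tested. Siglech had a log2 fold change of -3.79 ± 0.682 (edgeR FDR = 0.000763), and P2ry12 of -1.21 ± 0.281 (edgeR FDR = 0.00621). Limma-voom did not call Siglech (-2.85, FDR = 0.121). Olfml3, at 200.4, 183, 259 and 237 CPM in Ikbkb-/- and 170, 157, 149 and 111 CPM in Ikbkb+/+, was the gene whose groups did not overlap, and its log2 fold change was 0.60 ± 0.128 (edgeR FDR = 0.00333; 0.59 and FDR = 0.0943 in a fit of all 34 libraries).

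When Ikbkb+/+ 4 was the only control, an alternative added after the data were seen in which the lone library is assumed to vary like the Ikbkb-/- group, neither lower call remained. The log2 fold change was then 0.33 ± 0.134 for P2ry12 (edgeR FDR = 0.225) and 0.14 ± 0.323 for Siglech (FDR = 0.893). In that fit 3 of the 8 genes were called higher and 0 lower, while 3.01% of 12081 genes were called higher and 1.91% lower. These were Olfml3 (1.02 ± 0.179, edgeR FDR = 0.00212), Tmem119 (1.70 ± 0.341, FDR = 0.00601) and Selplg (1.37 ± 0.274, FDR = 0.00585).

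With all 4 controls the last 2 had been near 0. Tmem119 was at 101, 98.7, 182 and 214 CPM in Ikbkb-/- and 223, 197, 120.0 and 47.4 CPM in Ikbkb+/+ (0.06 ± 0.333, edgeR FDR = 0.929), and Selplg at 205, 223, 324 and 397 CPM and 334, 337, 202 and 114 CPM (0.24 ± 0.259, FDR = 0.61). Olfml3 was therefore called higher under either choice of controls. Gpr34 was at 212, 226, 246 and 271 CPM in Ikbkb-/- and at 387, 318, 307 and 222 CPM in Ikbkb+/+ (-0.36 ± 0.132, edgeR FDR = 0.0815), and it was called without Ikbkb+/+ 4 (-0.50, FDR = 0.00203). Neither P2ry13 (0.08 ± 0.219, edgeR FDR = 0.856) nor Fcrls (0.15 ± 0.0919, FDR = 0.313) was called. Oligodendrocyte markers were called higher in Ikbkb-/- for 8 of 10 genes (797 to 920 CPM in sum, against 456 to 579), and their part was not tested.

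The differences between comparisons were tested directly. The Fcrls effect of IkbkbCA was lower than that of Ikbkb-/- by a log2 difference of -2.04 (SE 0.438, edgeR FDR = 0.0115), and the tau effect on Fcrls exceeded the IkbkbCA effect by 2.07 ± 0.436 (FDR = 0.00449). Between IkbkbCA and Ikbkb-/- 2 of the 8 genes were called, Fcrls and Siglech (3.76 ± 0.843, edgeR FDR = 0.0164), against 3.12% of 12352 genes, and with Ikbkb+/+ 4 as the only Ikbkb+/+ control neither was (Fcrls -1.91, FDR = 0.527, near its former size; Siglech -0.16, FDR = 0.986). Tmem119 (1.58 ± 0.563, edgeR FDR = 0.16) was called in this contrast without Ikbkb+/+ 4 (1.90, FDR = 0.0421). For Olfml3, called higher in both genotypes, the difference was 0.24 ± 0.274 (edgeR FDR = 0.746). Between tau and IkbkbCA 1 of the 8 was called, against 9.42% of 12841 genes. The difference between the tau and IkbkbCA effects was 0.59 ± 0.473 for Tmem119 (edgeR FDR = 0.482), 0.22 ± 0.262 for Olfml3 (FDR = 0.646), -0.05 ± 0.355 for Selplg (FDR = 0.957) and -0.90 ± 0.462 for Gpr34 (FDR = 0.246). The Gpr34 difference was called without IkbkbCA 3 (-1.10, FDR = 0.00175).

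Between tau fibrils in culture and PS19 in adult mice, 3 of the 8 genes were called, against 8.07% of 11852 genes. Tmem119 differed by 2.37 ± 0.366 (edgeR FDR = 0.000143), Olfml3 by 1.28 ± 0.25 (FDR = 0.00177) and Gpr34 by -0.97 ± 0.261 (FDR = 0.0217). The first 2 were higher in tau-stimulated microglia and had negative values in PS19, whereas Gpr34 had a negative value in both. The Gpr34 difference was not called (FDR = 0.0529 to 0.0851) when any of tau 1, 2, 3 or 4, vehicle 2, NTG 1, 3 or 4, or PS19 3 or 4 was left out. Selplg, with a difference of 0.94 ± 0.334 (edgeR FDR = 0.091), was called without tau 4 (1.16, FDR = 0.0441) or PS19 4 (1.31, FDR = 0.00623).

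Among 34 other genes of homeostatic microglia, calls ran in both directions in 3 of the 4 comparisons. With tau fibrils 10 of 29 tested were called higher and 8 lower, with a median log2 fold change of 0.10. Lpcat2, an enzyme of phospholipid metabolism, had the highest value (2.06 ± 0.176, edgeR FDR = 3.7e-10) and the transporter Slco2b1 the lowest (-1.95 ± 0.164, FDR = 2.6e-10). In PS19, 0 of 34 were called by edgeR (5 at an unadjusted p under 0.05), with a median of -0.24. In IkbkbCA 4 of 31 were called higher, again with Lpcat2 at the top (1.82 ± 0.112, edgeR FDR = 2.18e-06), and 4 lower, with Crybb1 at the bottom (-1.95 ± 0.29, FDR = 0.000811). In Ikbkb-/- 3 of 32 were called higher, led by Serpine2 (1.21 ± 0.129, edgeR FDR = 2.04e-06), and 11 lower, led by the fructose transporter Slc2a5 (-2.71 ± 0.486, FDR = 0.000745). The lower calls rested largely on Ikbkb+/+ 1, 2 and 3: the 34 genes summed to 20300, 19200, 16900 and 13400 CPM in Ikbkb+/+ 1 to 4 and to 13800 to 15000 CPM in Ikbkb-/-, and with Ikbkb+/+ 4 as the only control 1 of the 11 genes (Cx3cr1, -0.77, edgeR FDR = 0.00252) was called lower, while Slc2a5 was at -0.39 (FDR = 0.639).

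Cx3cr1, the fractalkine receptor, was called higher with tau fibrils (1.08 ± 0.135, edgeR FDR = 4.8e-07) and lower in IkbkbCA (-0.56 ± 0.0918, FDR = 0.00153) and Ikbkb-/- (-1.16 ± 0.121, FDR = 1.63e-06), the genotypes with the Cre inserted in this gene. Csf1r, the receptor for the microglial survival factor CSF1, was called higher with tau fibrils (1.22 ± 0.122, edgeR FDR = 8.91e-09) and lower in Ikbkb-/- (-0.30 ± 0.094, FDR = 0.0365; -0.06, FDR = 0.896, with Ikbkb+/+ 4 as the only control). The Csf1r call in Ikbkb-/- was also lost when any of Ikbkb+/+ 1, 2 or 3 or Ikbkb-/- 1, 2 or 3 was left out (edgeR FDR = 0.0554 to 0.117). Sall1, the transcription factor, was called in no comparison (edgeR FDR = 0.191 with tau fibrils, 0.478 in PS19, 0.899 in IkbkbCA and 0.782 in Ikbkb-/-). Tgfbr1, a TGF-β receptor, was called higher with tau fibrils (0.67 ± 0.141, edgeR FDR = 0.000627) and in IkbkbCA (1.05 ± 0.17, FDR = 0.00148), and not in PS19 (-0.30, FDR = 0.789) or Ikbkb-/- (-0.09, FDR = 0.735).

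**Figure D4:**
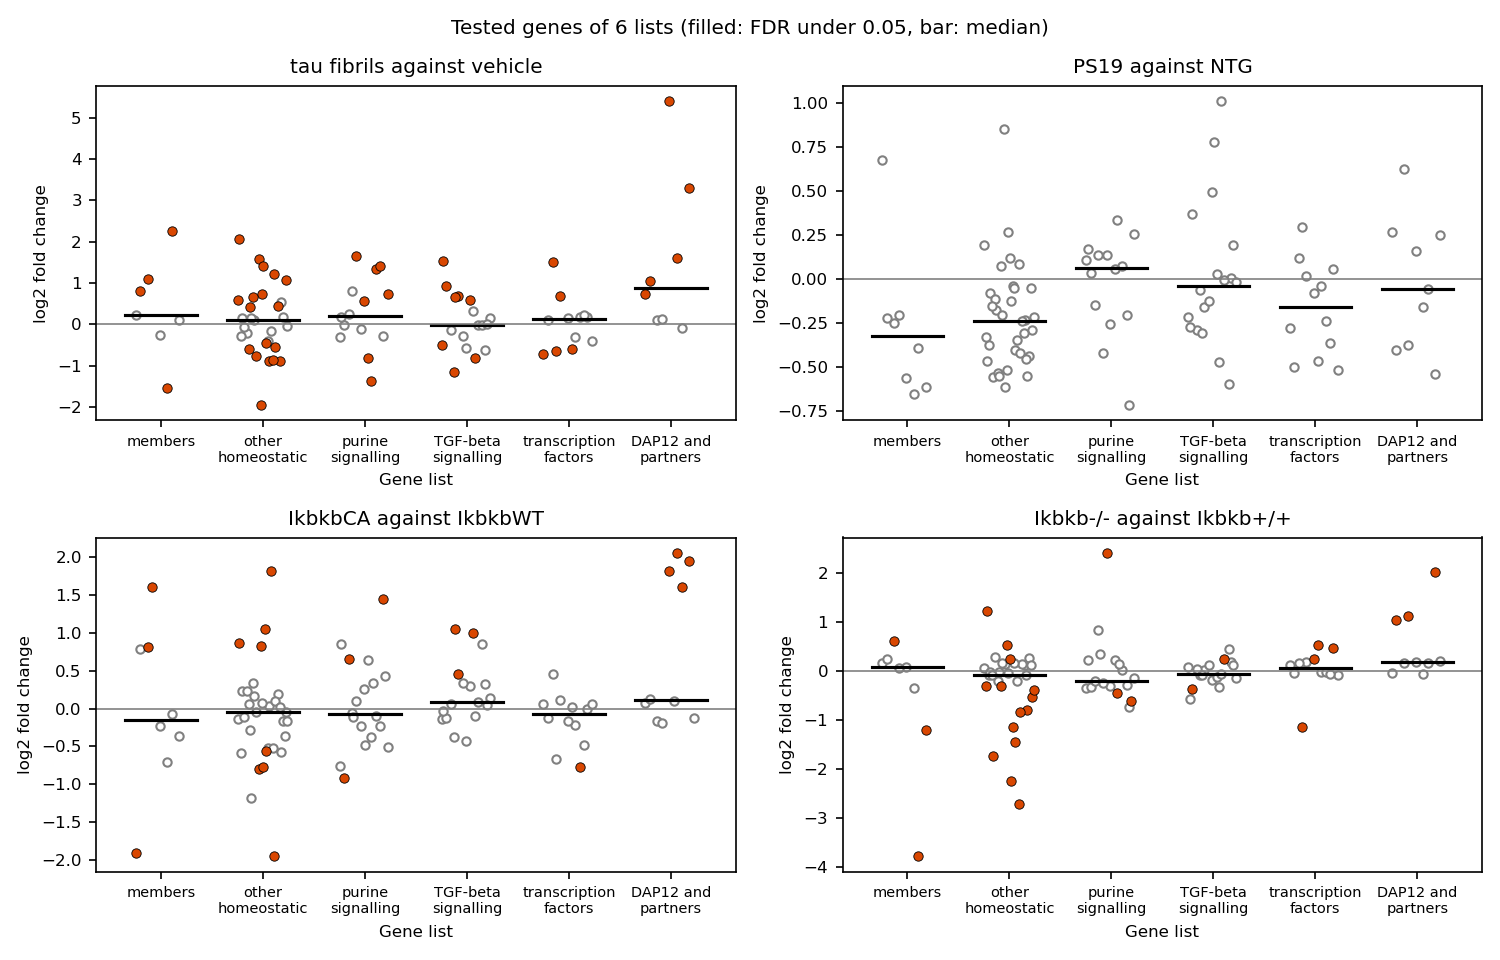
Log2 fold change (vertical) of the tested genes of 6 lists (horizontal) in the 4 comparisons, with filled points at FDR under 0.05 and bars at list medians. Filled points lie on both sides of 0 for the homeostatic genes in 3 comparisons, and no point of these lists is filled in PS19.

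The signalling partners of the 8 genes were mixed as well. Of the purine signalling genes, 5 of 14 were called higher with tau fibrils, led by the ion channel P2rx4 (1.65 ± 0.135, edgeR FDR = 1.53e-10) and the UDP receptor P2ry6 (1.42 ± 0.155, FDR = 4.6e-08), and 2 lower, the adenosine receptor Adora1 (-1.38 ± 0.229, FDR = 3.54e-05) and P2ry1 (-0.82 ± 0.295, FDR = 0.0365). In IkbkbCA 2 of 18 were called higher (Adora2b, 1.44, and P2rx4, 0.65) and 1 lower (Entpd1, the ectoenzyme CD39 that degrades ATP, -0.92). In Ikbkb-/- 1 of 17 was called higher (P2ry14, 2.41 ± 0.453, edgeR FDR = 0.00111) and 2 lower (Slc29a1, -0.61, and Adk, -0.46), of which neither was called with Ikbkb+/+ 4 as the only control (edgeR FDR = 0.311 and 0.22). In PS19 0 of 14 were called by edgeR (2 at an unadjusted p under 0.05).

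Tyrobp, which encodes the adaptor DAP12, was called in no comparison (edgeR FDR = 0.57 with tau fibrils, 0.827 in PS19, 0.631 in IkbkbCA and 0.0906 in Ikbkb-/-). Over its list, which also holds other receptors of this adaptor and other sialic acid receptors, 5 of 8 genes were called higher with tau fibrils, 4 of 10 in IkbkbCA and 3 of 9 in Ikbkb-/-, and none was called lower in these 3 comparisons. Siglece, an inhibitory sialic acid receptor, was at 5.40 ± 0.407 with tau fibrils (edgeR FDR = 2.61e-11), and Siglec1 (sialoadhesin) at 3.3 ± 0.372 (FDR = 7.72e-08). In IkbkbCA Clec5a was at 2.06 ± 0.139 (edgeR FDR = 4.43e-06) and Siglec1 at 1.96 ± 0.282 (FDR = 0.000666). Siglec1 was also highest in Ikbkb-/- (2.01 ± 0.166, edgeR FDR = 8.07e-08). Of the TGF-β signalling genes, 5 of 17 were called higher and 3 lower with tau fibrils, among them Tgfb1 (1.54 ± 0.236, edgeR FDR = 1.17e-05) and Itgb8, an activator of latent TGF-β (-1.17 ± 0.243, FDR = 0.000535). In IkbkbCA 3 of 17 were called higher and 0 lower, and in Ikbkb-/- 1 was called higher (Ski, 0.24) and 1 lower (Nrros, -0.37), and neither was called with Ikbkb+/+ 4 as the only control (edgeR FDR = 0.244 and 0.195).

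Among 12 transcription factors of microglia, Spi1, which encodes PU.1, was called higher with tau fibrils (1.5 ± 0.145, edgeR FDR = 4.52e-09), where 2 were called higher and 3 lower. Mef2c was the only factor called in IkbkbCA (-0.78 ± 0.125, edgeR FDR = 0.00145). In Ikbkb-/- 3 were called higher, among them Irf8 (0.46 ± 0.0766, edgeR FDR = 0.000361), and 1 lower (Egr1, -1.15 ± 0.105, FDR = 2.94e-07). Of the enzymes and partners of PSGL-1, 2 of 5 were called higher with tau fibrils, 1 of 7 in IkbkbCA and 2 of 6 in Ikbkb-/-. The cytoskeletal linker Msn was among them each time (0.42, 0.48 and 0.44). Its value in Ikbkb-/- was 0.36 when Ikbkb+/+ 4 was the only control. In PS19 edgeR called 0 of 9 DAP12 genes, 0 of 18 TGF-β genes, 0 of 12 factors and 0 of 7 PSGL-1 genes (1, 1, 3 and 0 at an unadjusted p under 0.05). Disease-associated microglia genes were called higher for 9 of 27 and lower for 7 of 27 genes with tau fibrils, 4 and 0 in PS19, 5 and 3 in IkbkbCA, and 8 and 3 in Ikbkb-/-. With Ikbkb+/+ 4 as the only control, the 3 lower genes of Ikbkb-/- were at -0.62 (Itgax), -0.54 (Lyz2) and -0.35 (Ccl6). The 8 higher genes were then at 0.20 (Igf1), 0.34 (Fth1), 0.47 (Gpnmb), 0.49 (Spp1), 0.74 (Csf1), 1.11 (B2m), 1.16 (Axl) and 1.66 (Cst7). Cst7 reached 3.495 ± 0.35 in PS19 (edgeR FDR = 0.000822), where the median of this list was 0.94 and that of the 8 homeostatic genes -0.32. Markers of border macrophages were called lower in IkbkbCA for 5 of 9 genes, Lyve1 the most (-4.56 ± 0.379, edgeR FDR = 1.75e-05), and higher for 3. In Ikbkb-/- 5 of 8 were called lower and 2 higher, and with tau fibrils 4 of 5 were called higher. In PS19, where CD11b beads could also enrich these cells, 0 of 9 were called by edgeR. Their sum was 1530 to 2230 CPM in IkbkbCA and 1860 to 2350 in IkbkbWT, 1030 to 1470 in Ikbkb-/- and 1970 to 2340 in Ikbkb+/+, and 1210 to 1400 with tau fibrils and 243 to 311 with vehicle. Their part in the results for the 8 genes was not tested.

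The genes whose values were most like the mean of the 8 were Plcl2, Gal3st4, Ptgs1, Alox5ap and St3gal6, with Pearson correlations of 0.73, 0.712, 0.699, 0.685 and 0.681 among 13310 genes. These are descriptions over 34 libraries of log2 CPM after the mean of each experiment's control group was subtracted, and the libraries of an experiment share their preparation and depth. They include Ikbkb+/+ 1, 2 and 3 and IkbkbCA 3, which stood apart in most of the 8 genes, and no correlation was computed without them. On that scale Tmem119 was most like its neighbour Selplg (0.902) and Olfml3 (0.86), and it ran against Gpr34 (-0.413).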

How the data were processed

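RNA of 34 microglia libraries was sequenced as QuantSeq 3′ mRNA-Seq. The authors aligned the reads to GRCm38 (GENCODE) with the QuantSeq pipeline of BlueBee and deposited 1 table of whole-number counts per library, without normalization, for 47643 Ensembl genes and 5 lines of reads not counted on a gene. These lines were left out of library sizes. The methods name RSEM, although the tables lack its columns, and the submitters' processing notes list STAR, RSEM, edgeR and limma without versions. The 24 cortex samples of the series were not analysed here. Symbols and positions came from GENCODE M21, which had 47224 of the 47643 identifiers.

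Each comparison was fitted on the libraries of its 2 groups with edgeR 4.0.16 (R 4.3.3), TMM normalization, filterByExpr (minimum count 10, minimum total 15) and the quasi-likelihood test. DEGs had a Benjamini-Hochberg FDR under 0.05. Differences between comparisons were tested in a fit of their 4 groups. SE was computed from the log2 fold change and its F statistic. CPM were scaled by TMM over 34 libraries. Within groups none of 56 pairs of libraries was identical. The procedure was also run on simulated counts, and the outcome is not given here. In those counts the libraries of a group shared the same means, so the run does not bear on libraries that stood apart.

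The members and gene lists were chosen with earlier results of these data known. Named genes are the 8 members, the called genes with the highest and lowest log2 fold changes of each list (up to 2 each way), Cx3cr1, Csf1r, Sall1, Tgfbr1 and Ikbkb, and the 5 genes most like the members' mean (at least 1 CPM in 10 libraries, prior count 2). Some genes of short counts were named after their values were seen. A further gene of the rule is not reported here. Of the list symbols 217 of 218 were matched. Alternatives were RLE normalization, scaling to total counts, DESeq2 1.42.0, limma-voom (limma 3.58.1), filters of 0 or of 10 counts per library, 1 fit of all 34 libraries, an age term for PS19, and the removal of single libraries.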

Additional observations from a re-analysis of the deposited data

Results flagged for a closer look

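In 6 of 64 sets of libraries (8 genes in 8 groups) 1 library lay far from the rest of its group. The rule flags about 1 in 20 sets of independent, normally distributed values. These sets are not independent, because the genes were counted in the same libraries, so that rate cannot be used to weigh the flags. In IkbkbCA 3, P2ry12 was at 30.95 CPM (nearest library 74.21), P2ry13 at 19.89 CPM (nearest 91.08) and Gpr34 at 31.87 CPM (nearest 143.7). Siglech was at 0.4198 CPM, a single count, in tau 2. The other tau libraries had 0, so any count in tau 2 would have been flagged. In NTG 4 Siglech was at 2657 CPM (nearest 2075). Fcrls was at 595.6 CPM in vehicle 2 (nearest 472.5).

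The effects of comparisons differed for 5 genes by edgeR's test of the difference. Siglech (3.76, FDR = 0.0164) and Fcrls (-2.04, FDR = 0.0115) differed between IkbkbCA and Ikbkb-/-, and with Ikbkb+/+ 4 as the only Ikbkb+/+ control the difference was -0.16 for Siglech (FDR = 0.986) and -1.91 for Fcrls (FDR = 0.527), so that the Fcrls value stayed near its size without being called. Fcrls differed between tau fibrils and IkbkbCA (2.07, edgeR FDR = 0.00449). Tmem119 (2.37, edgeR FDR = 0.000143), Gpr34 (-0.973, FDR = 0.0217) and Olfml3 (1.28, FDR = 0.00177) differed between tau fibrils and PS19.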

How the results depend on the processing

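Across the alternatives 198 of 208 counts of called genes among the 8 were rated unchanged, where 2 against 3 calls was rated as unchanged. Both the sign and the call were kept for 484 of 521 fold changes and 552 of 590 differences between comparisons. The sign changed for 18 of these fold changes and 17 of these differences. Leaving out each library gave 3 to 3 higher and 1 to 1 lower calls with tau fibrils, 0 to 0 in PS19, 2 to 3 higher and 1 to 2 lower in IkbkbCA (2 lower without IkbkbCA 3) and 1 to 1 higher and 2 to 3 lower in Ikbkb-/-. For the differences it gave 2 to 3 calls (IkbkbCA and Ikbkb-/-), 1 to 2 (tau and IkbkbCA; 2 without IkbkbCA 3) and 2 to 3 (tau and PS19). For Ikbkb-/-, limma-voom gave 1 lower call, the fit of all 34 libraries 0 higher calls, and Ikbkb+/+ 4 as the only control, an alternative chosen after seeing the data, 3 higher and 0 lower calls. The difference between IkbkbCA and Ikbkb-/- had 1 call by limma-voom and 0 with that control. In IkbkbCA, also chosen after seeing the data, the libraries with few neuronal markers gave 0 higher calls and those with many gave 2 lower calls. These fits hold fewer libraries. The cause was not tested. No paired analysis was possible because the labels give no replicate numbers within groups (the numbers used here follow the order of the samples) and tie no library to another group.

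Signs turned for these log2 fold changes, given as ranges over the fits that each left out 1 library. With tau fibrils P2ry12 ranged from -0.136 (without vehicle 2) to 0.321 and P2ry13 from -0.433 to 0.15 (without vehicle 2), and total count scaling gave -0.039 for P2ry12. In PS19 Cx3cr1 ranged from -0.183 to 0.0634 (0.00591 with no filter) and Csf1r from -0.123 to 0.215. In IkbkbCA P2ry13 ranged from -0.34 to 0.0358 (without IkbkbCA 3), Siglech from -0.196 to 0.0396 and Sall1 from -0.0664 to 0.244. With many neuronal markers P2ry13 was 0.0586 and Siglech 0.055, and with few Sall1 was -0.0821. In Ikbkb-/- Tmem119 ranged from -0.256 (without Ikbkb+/+ 4) to 0.334, P2ry13 from -0.117 to 0.304, Selplg from -0.0144 to 0.436, Sall1 from -0.228 to 0.0847 and Tgfbr1 from -0.254 to 0.0452. With Ikbkb+/+ 4 as the only control P2ry12 was 0.332, Siglech 0.145, Gpr34 0.144, Sall1 0.419 and Tgfbr1 0.462, and the differences of IkbkbCA and Ikbkb-/- were -0.652 for P2ry12, -0.0494 for Tmem119, -0.16 for Siglech, -0.166 for Olfml3 and -0.544 for Selplg. The difference of tau and IkbkbCA ranged from -0.176 to 0.146 for Selplg (0.0444 with no filter, 0.0242 in the fit of 34 libraries) and from -0.322 to 0.326 for P2ry13 (0.0776 by limma-voom).

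Over all genes, 8 were called in PS19, against 166 with no filter, 97 by DESeq2, 375 in the fit of 34 libraries and 4 by limma-voom. The fit of 34 libraries gave 515 calls in Ikbkb-/- (859 higher and 782 lower otherwise), 225 for IkbkbCA minus Ikbkb-/- (386) and 1541 for tau minus PS19 (957). Under total count scaling 1057 of 3311 calls with tau fibrils were higher (1506 higher and 1602 lower otherwise), and 753 of 2005 in IkbkbCA (855 higher and 837 lower).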
